A study of Gallus gallus with 20 samples.

Results

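Before a cell can copy its DNA, each replication origin has to be licensed. The origin recognition complex (ORC) marks the origin, and CDC6 and CDT1 then load the MCM helicase onto it. In S phase, CDC45 and the GINS complex switch the helicase on, and primase starts each new strand. The delta and epsilon DNA polymerases then copy the strands on the sliding clamp PCNA, and FEN1 and LIG1 join the fragments of the lagging strand. These roles are known mainly from yeast and mammalian cells. Many of the genes are transcribed at the start of S phase by E2F factors, so their transcripts are abundant in cultures of dividing cells and scarce in cultures that have stopped dividing.

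A set of 47 genes of DNA replication was followed in muscle satellite cells (MuSCs), the stem cells of skeletal muscle. The genes were chosen by name, with earlier results of these data known. They were grouped into 7 lists by what their proteins do, from licensing to chromatin assembly. Of the 47 genes, 45 were listed under their symbol among the 30108 genes of the table, and all 45 had enough counts to be tested. MCM7 and GINS4 were not analysed here.

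The MuSCs came from the pectoralis major (breast muscle) of Ross 308 broilers, which were 36 days old and described as male. Broilers were classed as affected by wooden breast, a myopathy that hardens the breast muscle, or as non-affected, and the labels gave 9 affected (A) and 11 non-affected (NA) samples. Cells were isolated by enzyme digestion, pre-plated to remove fast-adhering fibroblasts, and expanded for a few passages in the same growth medium in both groups. No treatment or genetic change was applied to either group, and part of the cells could come from fillets collected at an abattoir. Poly-A RNA was sequenced from proliferating cells, and the comparison asked how the transcriptome of affected MuSCs differed from that of non-affected MuSCs. In bulk RNA, fewer dividing cells and less replication RNA per dividing cell cannot be told apart.

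Total counts lay between 15425103 and 28113814 per sample and gave p = 0.527 between the groups in a two-sided exact permutation test with 167960 splits. In 4 cases a pair of samples shared a bird number and differed by the suffix B (A16, A76, NA61 and NA64). Although the birds were described as male, HINTW, a gene of the W chromosome that only female birds carry, had between 1316 and 5701 counts in 9 non-affected samples and 876 counts in A76. It had at most 9 counts in the other 8 affected samples and 0 in NA61 and NA61B, where a count of 0 allows up to 3 counts. A76B had 0 counts of HINTW, so A76 and A76B differed although they share a bird number. The presence of W transcripts and the group were therefore nearly the same split of the samples. The satellite cell markers PAX7 and MYF5 were detected in all 20 samples. The summed level of 9 listed myoblast markers was 91.1 to 1883 CPM (counts scaled to the library size with TMM factors) in non-affected and 66.4 to 250.02 CPM in affected samples. The top value was that of NA70, where MYOD1 had 12015 counts and MYOG 7307, and the next was 661 CPM in NA68. NA64B (91.1 CPM) and NA65 (129.5 CPM) lay within the affected range. MYOG had 3 to 10 counts in the affected samples. Of the 8 that could be tested, 5 were called lower in affected samples, compared with 2.86% of all tested genes. These were MYF5, MYOD1, MYOG, DES and CDH15. PAX7 was lower but not called (log2 fold change, affected over non-affected, -0.81; edgeR adjusted p = 0.108), as was PAX3 (-0.56; edgeR adjusted p = 0.301). ITGA7 went the other way, at 0.73 (edgeR adjusted p = 0.244).

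All 45 replication genes had a lower mean level in affected than in non-affected MuSCs, whereas 51.4% of all 14524 tested genes did. The median log2 fold change (affected over non-affected) of the 45 genes was -0.60, with values from -1.11 for TYMS to -0.0021 for ORC1, and the median of all tested genes was -0.01. In 29 of the 45 genes the log2 fold change was -0.5 or less, which held for 9.43% of all tested genes. TYMS and MCM2 passed -1. None of the 45 genes, however, reached an adjusted p of 0.05 or less in edgeR's quasi-likelihood test, in either direction. Of all tested genes, 2.86% were called lower and 3.21% higher. The smallest adjusted p among the 45 was 0.0577, for GINS3. At an unadjusted p under 0.05, 23 of the 45 were lower, compared with 11.6% of all tested genes, and none was higher, compared with 12.4%. Because earlier results were known when the genes were chosen, these shares describe the set and are no independent test of it.

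**Figure D1:**
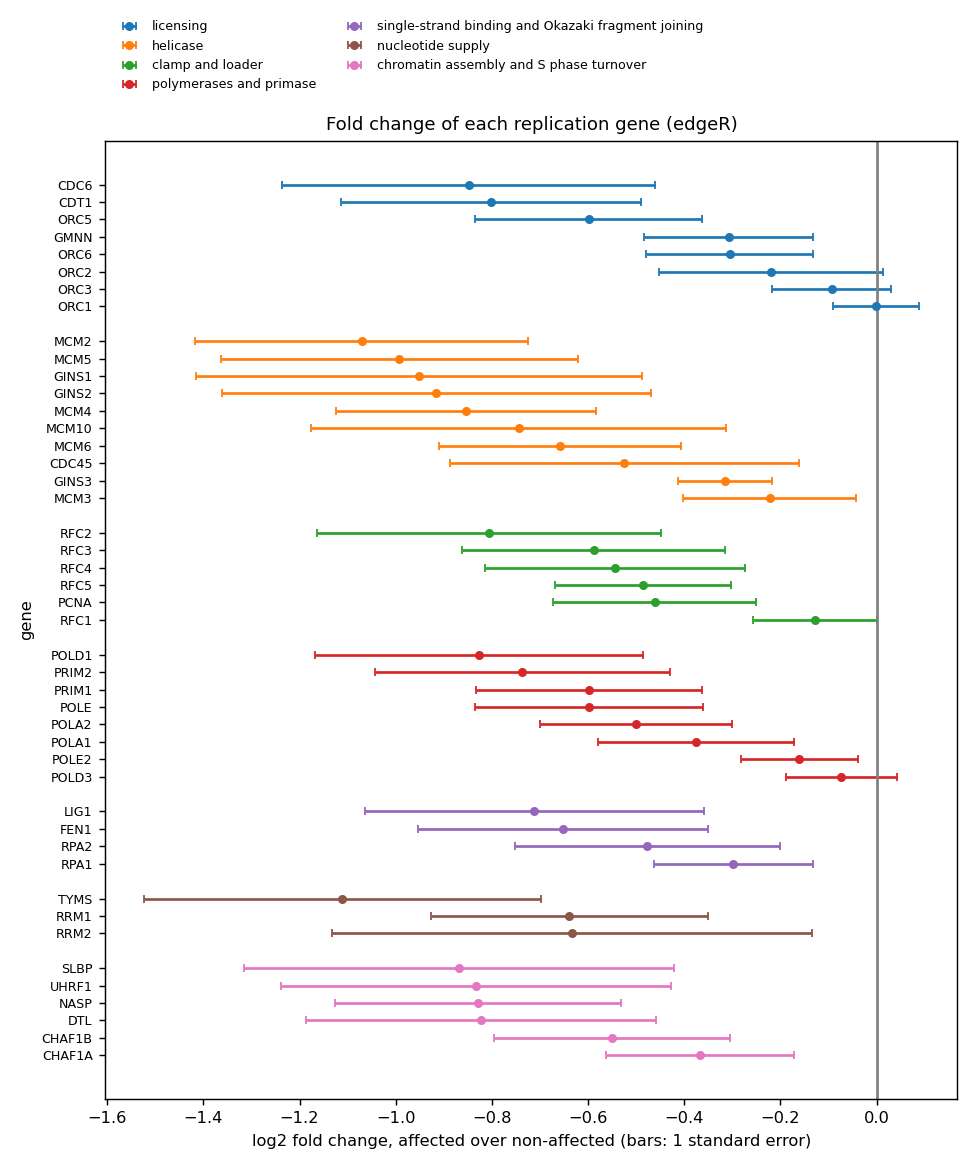
The log2 fold change (affected over non-affected) of each of the 45 replication genes is plotted with a bar of 1 standard error, grouped and coloured by list. All 45 points lie at or below 0, from TYMS at -1.11 to ORC1 at -0.0021, and the genes with the lowest values also have wide bars.

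The lists differed in how low they lay. Helicase genes had a median log2 fold change of -0.80 over 10 genes, and chromatin assembly and S phase turnover genes one of -0.83 over 6. Nucleotide supply followed with -0.64 over 3 genes. Single-strand binding and Okazaki fragment joining (4 genes, -0.56), polymerases and primase (8 genes, -0.55) and clamp and loader (6 genes, -0.51) lay close together, and licensing had the median nearest to 0, at -0.31 over 8 genes. Differences between lists were not tested.

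Of the licensing genes, CDT1, the loading factor that brings the MCM helicase to the origin, stood with the smallest p of its list. CDT1 ranged from 21.0 to 60.2 CPM in non-affected samples, with a median of 31.0, and from 9.59 to 55.1 CPM in affected samples, with a median of 15.7. Of the 9 affected samples, 7 were below every non-affected sample, and A73 and A76 were within the non-affected range. The mean was 36.9 ± 14.7 CPM (SD, n = 11) against 21.2 ± 15.2 CPM (SD, n = 9), a log2 fold change of -0.80 ± 0.31 (SE; edgeR adjusted p = 0.124). ORC5, a subunit of the origin recognition complex, showed the same split of samples at lower levels. ORC5 was at 12.1 to 23.1 CPM (median 16.1) in non-affected and at 5.02 to 21.0 CPM (median 8.43) in affected samples. Its log2 fold change was -0.60 ± 0.24 (SE; edgeR adjusted p = 0.129).

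CDC6, the ATPase that works with CDT1, had a log2 fold change of -0.85 and an unadjusted p of 0.0401. GMNN (geminin), which holds CDT1 inactive after origins have fired, was at -0.31, as was ORC6. ORC2 was at -0.22 and ORC3 at -0.09. ORC4, which is not among the 45 genes, was at 0.25 (edgeR adjusted p = 0.338). ORC1, the subunit with the largest p of the list, lay at nearly the same level in both groups. Its levels were 34.5 to 61.3 CPM (median 54.8) in non-affected and 47.05 to 58.8 CPM (median 53.3) in affected samples, with a log2 fold change of -0.0021 ± 0.09 (SE; edgeR adjusted p = 0.992). The lowest of all 20 samples for ORC1 was the non-affected NA64B, which was the highest of all for CDC6, CDT1 and GMNN. The sign of the ORC1 fold change turned when any of several samples was left out.

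The MCM2 to MCM7 proteins form the ring of the replicative helicase. MCM4 ranged from 40.4 to 139.8 CPM (median 77.9) in non-affected and from 23.8 to 95.0 CPM (median 32.0) in affected samples. The mean was 84.6 ± 29.9 CPM (SD, n = 11) against 46.8 ± 25.9 CPM (SD, n = 9), with a log2 fold change of -0.85 ± 0.27 (SE; edgeR adjusted p = 0.0628). For MCM4, 5 of the 9 affected samples were below every non-affected sample. MCM2 had the lowest log2 fold change of the list, -1.07 ± 0.35 (SE; edgeR adjusted p = 0.0686). MCM2 was at 40.1 to 166.2 CPM (median 57.4) in non-affected and at 16.8 to 96.2 CPM (median 24.5) in affected samples. MCM5 was at -0.99 and MCM6 at -0.66, and in both, as in MCM2, 7 affected samples were below the non-affected range.

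MCM3 had the log2 fold change nearest to 0 of the 5 MCM ring genes tested. Its levels were 71.4 to 146.8 CPM (median 117.2) in non-affected and 49.2 to 146.05 CPM (median 87.04) in affected samples, with a log2 fold change of -0.22 ± 0.18 (SE; edgeR adjusted p = 0.457), and it had the largest p of the helicase list. As in the others, 7 of 9 affected samples were below the non-affected median. The order of the ring genes varied by sample. Relative to the median of the non-affected samples, MCM3 was at 1.166 in A16B, whereas MCM2 was at 0.350, MCM4 at 0.341, MCM5 at 0.21 and MCM6 at 0.411. In A76B, MCM3 was at 0.42, above MCM2 (0.376) but below MCM4 (0.702), MCM5 (0.482) and MCM6 (0.604). In A76, MCM3 was the lowest of the 5, at 0.961. Whether MCM3 differed from the other MCM genes was not tested.

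CDC45 and GINS bind the MCM ring to make the active helicase, and MCM10 is needed for its start. GINS3 had the smallest p of all 45 genes, with a small and even difference. Its levels were 19.1 to 30.8 CPM (median 25.5) in non-affected and 17.5 to 25.7 CPM (median 18.9) in affected samples. The mean was 24.98 ± 3.28 CPM (SD, n = 11) against 20.1 ± 2.98 CPM (SD, n = 9), with a log2 fold change of -0.32 ± 0.10 (SE; edgeR adjusted p = 0.0577). In 8 of 9 affected samples GINS3 was below the non-affected median, and A73, at 1.005 times that median, was the exception. GINS1 (-0.95) and GINS2 (-0.92) had far lower log2 fold changes than GINS3 but larger standard errors, 0.46 and 0.45, and neither had an unadjusted p under 0.05. In A72, GINS1 was at 0.120 (13 counts) and GINS2 at 0.130 (18 counts) of the non-affected median and GINS3 at 0.759. MCM10 had a log2 fold change of -0.74 and CDC45 one of -0.52.

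**Figure D2:**
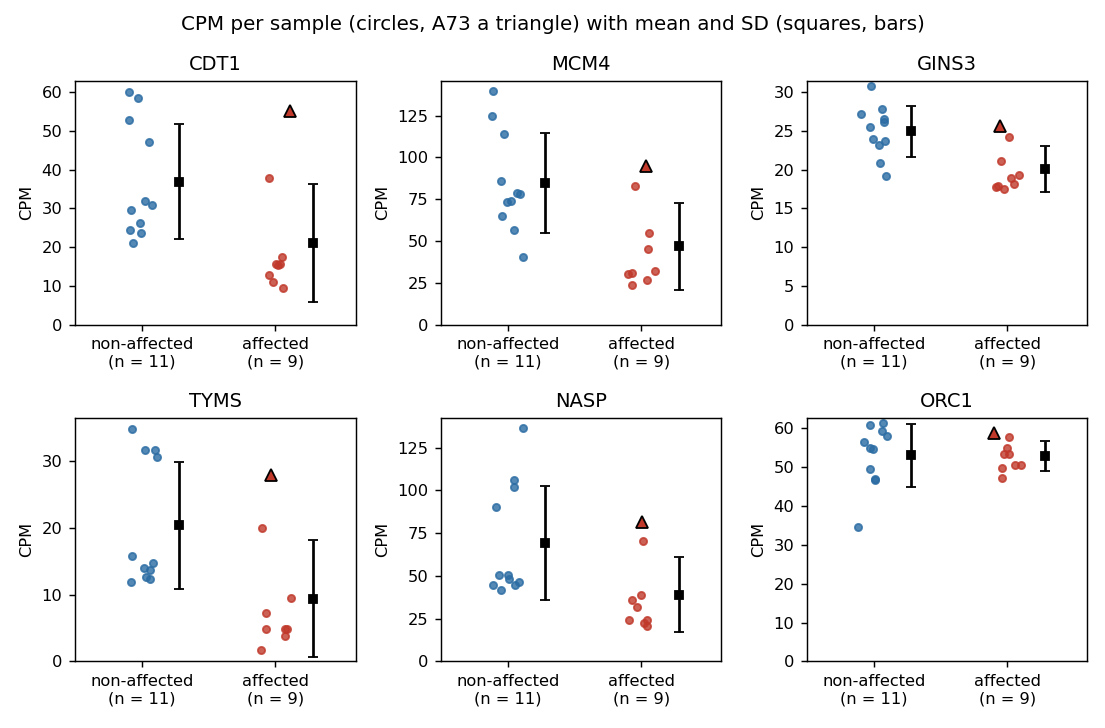
CPM in each sample is plotted for CDT1, MCM4, GINS3, TYMS, NASP and ORC1, with non-affected samples in blue, affected samples in red, the sample A73 as a triangle, and the mean with its SD as black squares and bars. In CDT1, TYMS and NASP, 7 affected samples are below all 11 non-affected samples while A73 is well inside their range, and in ORC1 the groups overlap throughout.

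PCNA is the sliding clamp that holds the polymerases on DNA, and the 5 RFC proteins load it. PCNA ranged from 82.4 to 220.8 CPM (median 129.7) in non-affected and from 60.7 to 189.95 CPM (median 86.8) in affected samples, a log2 fold change of -0.46 with an unadjusted p of 0.04. RFC5 had the smallest p of the list. Its levels were 20.5 to 53.3 CPM (median 35.2) against 17.7 to 45.7 CPM (median 23.8), with a log2 fold change of -0.49 ± 0.18 (SE; edgeR adjusted p = 0.112). RFC2 was lower still, with 11.2 to 41.9 CPM (median 19.8) in non-affected and 6.02 to 37.6 CPM (median 8.67) in affected samples, and 7 affected samples below the non-affected range. The log2 fold change of RFC2 was -0.81 ± 0.36 (SE; edgeR adjusted p = 0.174). RFC3 was at -0.59 and RFC4 at -0.54. RFC1, the large subunit, had the largest p of the list, at -0.13 ± 0.13 (SE; edgeR adjusted p = 0.559), and lay between 27.8 and 52.6 CPM in affected samples and between 30.9 and 52.9 CPM in non-affected samples.

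Primase starts each new strand, the alpha polymerase extends it, and the delta and epsilon polymerases copy most of the genome. PRIM1, the catalytic subunit of primase, was at 14.8 to 46.5 CPM (median 17.8) in non-affected and at 8.75 to 29.9 CPM (median 12.9) in affected samples. The log2 fold change was -0.60 ± 0.24 (SE; edgeR adjusted p = 0.127), and 6 affected samples were below the non-affected range. POLE, the catalytic subunit of polymerase epsilon, was at 19.2 to 50.96 CPM (median 27.0) against 12.7 to 38.8 CPM (median 19.1), with a log2 fold change of -0.60 ± 0.24 (SE; edgeR adjusted p = 0.13). For polymerases delta and epsilon, the catalytic subunits had lower log2 fold changes (POLD1 -0.83, POLE -0.60) than the accessory subunits tested with them (POLD3 -0.07, POLE2 -0.16). Of the other accessory subunits, counted in a second set below, POLD2 was at -0.40, POLD4 at 0.14, POLE3 at -0.27 and POLE4 at -0.08. POLD2 and POLE3 had an unadjusted p under 0.05 in edgeR. The difference between subunits was not tested. POLD3 had the largest p of the list (-0.07 ± 0.12, SE; edgeR adjusted p = 0.716), with 26.5 to 43.4 CPM in non-affected and 24.7 to 41.2 CPM in affected samples. PRIM2 was at -0.74, POLA2 at -0.50 and POLA1 at -0.38.

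RPA coats single-stranded DNA, FEN1 trims the flaps of Okazaki fragments and LIG1 seals them. FEN1 ranged from 53.5 to 151.02 CPM (median 67.5) in non-affected and from 23.6 to 131.8 CPM (median 39.98) in affected samples, with 7 affected samples below the non-affected range. Its log2 fold change was -0.65 ± 0.30 (SE; edgeR adjusted p = 0.192). LIG1 was at 22.7 to 69.0 CPM (median 27.8) against 9.09 to 64.6 CPM (median 20.3), with a log2 fold change of -0.71 ± 0.35 (SE; edgeR adjusted p = 0.221). RPA2 was at 31.4 to 87.8 CPM (median 43.5) against 18.4 to 94.9 CPM (median 28.8). Its log2 fold change was -0.48 ± 0.28 (SE; edgeR adjusted p = 0.294), and its highest value of all 20 samples was in the affected sample A73. RPA1 was at -0.30.

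Nucleotide supply held the lowest log2 fold change of the 45. TYMS, the thymidylate synthase that makes dTMP, was at 11.96 to 34.8 CPM (median 14.7) in non-affected and at 1.71 to 27.9 CPM (median 4.92) in affected samples. The mean was 20.4 ± 9.48 CPM (SD, n = 11) against 9.42 ± 8.71 CPM (SD, n = 9), with a log2 fold change of -1.11 ± 0.41 (SE; edgeR adjusted p = 0.109). The lowest TYMS value, in A72, rested on 26 counts. RRM1 and RRM2 are the subunits of ribonucleotide reductase, which makes the deoxyribonucleotides. RRM1 was at 70.8 to 194.04 CPM (median 120.3) against 36.2 to 214.5 CPM (median 72.7), with a log2 fold change of -0.64 ± 0.29 (SE; edgeR adjusted p = 0.181).

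RRM2 had a log2 fold change much like that of RRM1 but a wider spread, -0.63 ± 0.50 (SE; edgeR adjusted p = 0.444). It ranged from 54.3 to 253.2 CPM (median 85.9) in non-affected and from 11.004 to 226.1 CPM (median 38.3) in affected samples. Relative to the non-affected median, RRM2 was at 0.128 in A16B and 0.135 in A72, the lowest, and at 2.63 in A73 and 2.42 in A76, the highest of the affected samples.

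The last list holds genes that rebuild chromatin behind the fork or act in the turnover of S phase proteins. NASP, a histone chaperone, was at 41.5 to 136.5 CPM (median 50.4) in non-affected and at 21.0 to 81.5 CPM (median 32.0) in affected samples. The mean was 69.2 ± 33.2 CPM (SD, n = 11) against 38.9 ± 21.9 CPM (SD, n = 9), with a log2 fold change of -0.83 ± 0.30 (SE; edgeR adjusted p = 0.0979). DTL, which directs the degradation of CDT1 in S phase, was at 8.99 to 21.8 CPM (median 14.0) against 2.65 to 23.5 CPM (median 4.98). Its log2 fold change was -0.82 ± 0.36 (SE; edgeR adjusted p = 0.174). In NASP and DTL, 7 affected samples were below every non-affected sample. CHAF1A, the large subunit of chromatin assembly factor 1, had the largest p of the list, with 23.6 to 50.1 CPM (median 30.9) against 14.7 to 46.95 CPM (median 22.4). Its log2 fold change was -0.37 ± 0.20 (SE; edgeR adjusted p = 0.254).

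SLBP, which binds the stem-loop of histone mRNAs, was at -0.87, UHRF1, which helps to copy DNA methylation, at -0.83, and CHAF1B at -0.55. In SLBP and UHRF1, as in CHAF1A, 7 affected samples were also below the non-affected range. SLBP had few counts, from 15 to 203 per sample. Most replication-dependent histone mRNAs lack a poly-A tail and were not examined.

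The 9 affected samples did not behave as one group. For each sample, the level of each gene was divided by the gene's median in the non-affected samples, and the median over the 45 genes was taken. This ratio was between 0.411 and 0.73 in 7 affected samples: 0.411 in A16B, 0.416 in A72, 0.486 in A85, 0.4932 in A4, 0.616 in A16, 0.668 in A76B and 0.73 in A79. It was 1.29 in A76 and 1.67 in A73. The A73 value was above that of every non-affected sample. The non-affected samples also lay apart from each other, at 0.711 in NA61B, between 0.854 and 1 in 6 samples, and between 1.45 and 1.55 in NA70, NA64B, NA68 and NA61. The share of all counts that fell on the 45 genes was 0.130% to 0.308% (median 0.176%) in non-affected and 0.0817% to 0.284% (median 0.104%) in affected samples.

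**Figure D3:**
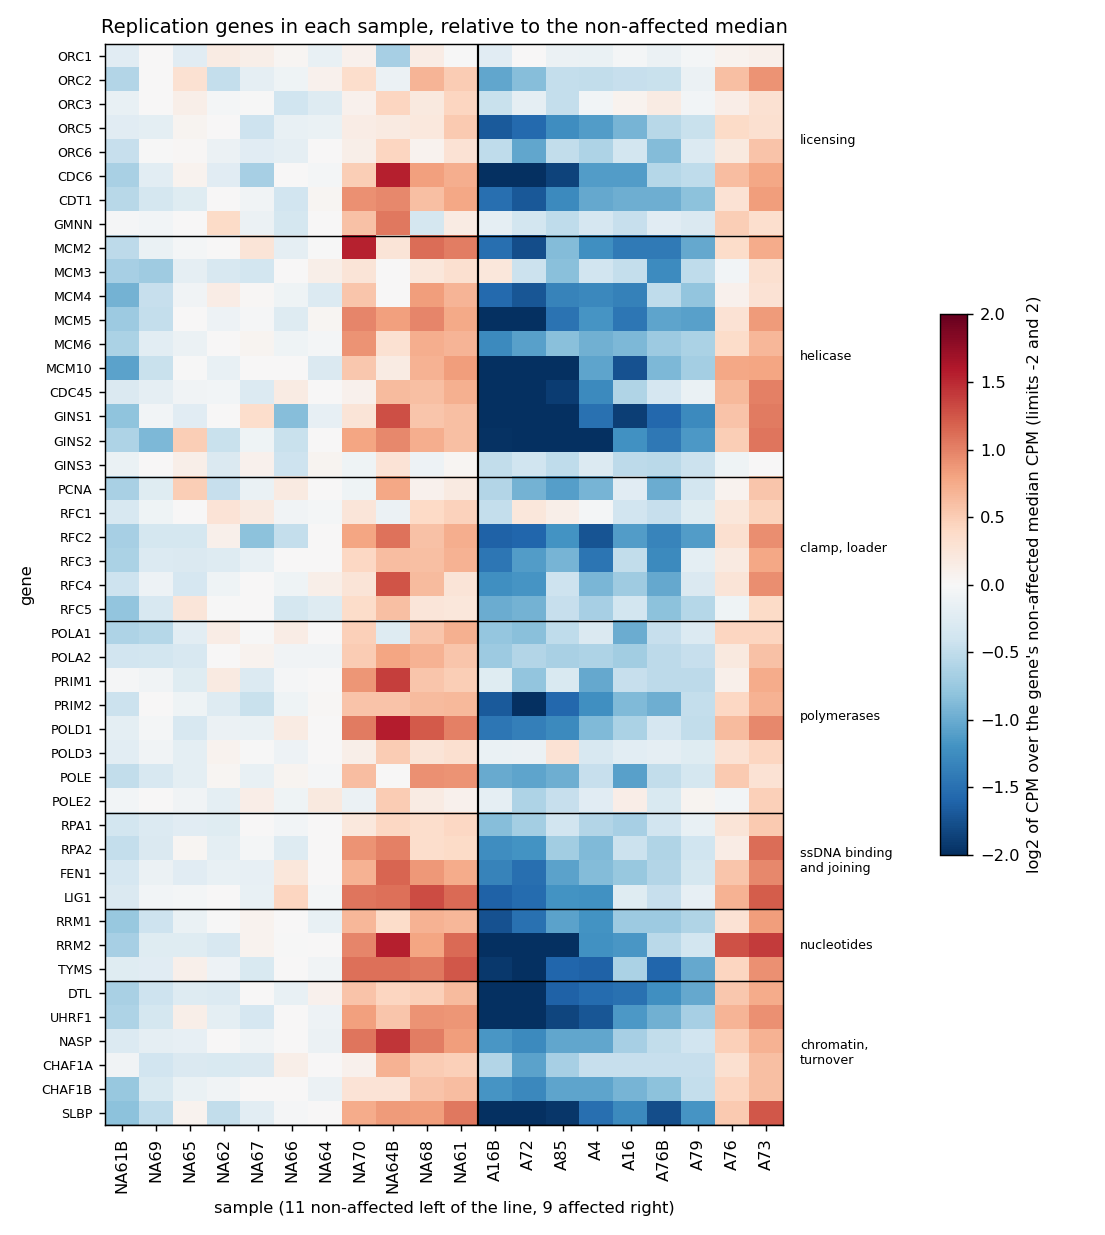
Each cell gives the log2 of a gene's CPM in a sample over its median in the 11 non-affected samples, from blue (lower) to red (higher), with genes in rows by list and samples in columns ordered within each group by their median ratio. The columns of A16B to A79 are blue in nearly all rows, those of A76 and A73 are mostly red, and the rows of ORC1, ORC3, RFC1 and POLD3 are pale throughout.

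The same 7 samples, all affected ones but A73 and A76, were low in most of the genes. In 38 of the 45 genes exactly 7 of the 9 affected samples were below the non-affected median. For MCM3, 1 of the 38, they included A76 (0.961 of the median) and not A16B (1.166). In 2 genes (GINS3 and RFC5) 8 were below it, and in no gene were all 9. At least 7 of 9 were below that median in 26.4% of all tested genes, compared with 40 of the 45. In 18 of the 45 genes, 7 affected samples were below all 11 non-affected samples, compared with 1.4% of all tested genes. Between 21 (A79) and 39 (A72) of the 45 genes lay below the whole non-affected range in each affected sample other than A73 and A76. In all tested genes that share was 7.73% in A79 and 16.4% in A72.

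A73 stood at the other end. All 45 genes were above the non-affected median in A73 and 12 were above every non-affected sample, whereas 51.1% and 7.5% of all tested genes were. In A76, 41 of the 45 were above the non-affected median, compared with 52.2% of all tested genes, and none was outside the non-affected range.

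**Figure D4:**
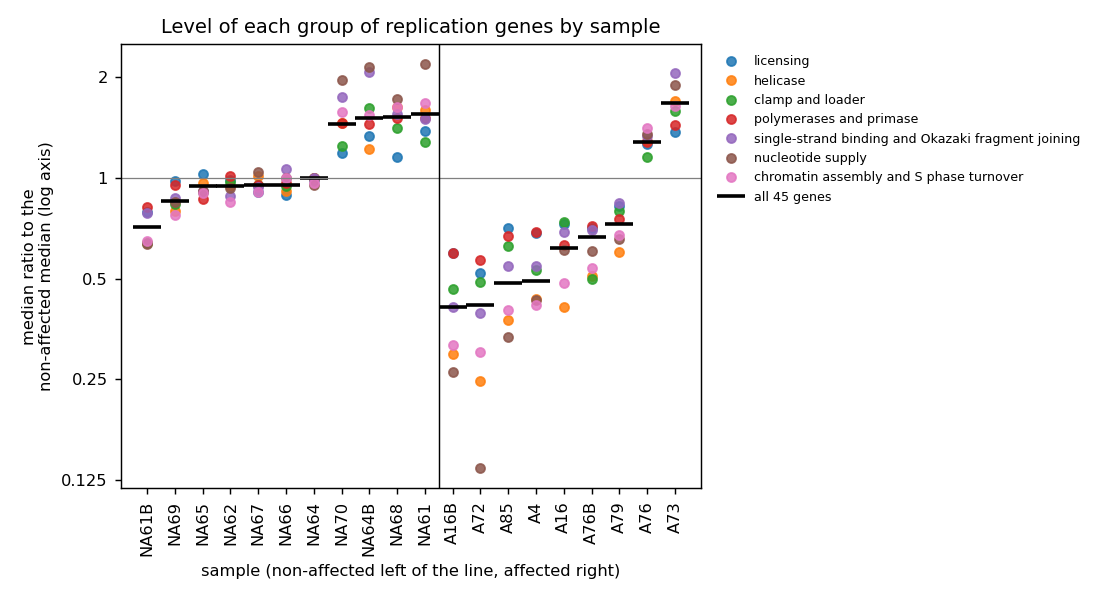
For each sample, coloured points give the median ratio to the non-affected median of the genes of each list, and black bars that of all 45 genes, on a log axis. The bars of 7 affected samples are at 0.73 or less and those of A76 and A73 are at 1.29 and 1.67, and the lowest point is nucleotide supply in A72 at 0.135.

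The lists also spread apart within a sample. In A72, nucleotide supply was at 0.135 of the non-affected median, the helicase list at 0.246, the licensing list at 0.521 and polymerases and primase at 0.569. In A16B, these were 0.263, 0.297, 0.595 and 0.596, so nucleotide supply was the lowest list in both samples, as it was in A85 (0.334). In the other low samples another list was lowest, namely helicase in A16 (0.411) and A79 (0.6005), chromatin assembly and S phase turnover in A4 (0.417), and clamp and loader in A76B (0.498). In A73, single-strand binding and Okazaki fragment joining was highest, at 2.07, and licensing lowest, at 1.38.

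The coefficient of variation (SD over mean) was larger among affected than among non-affected samples in 41 of the 45 genes, compared with 37.7% of all tested genes. Its median over the 45 genes was 33.1% in non-affected and 57.6% in affected samples. Over all tested genes the medians were 28.9% and 25.1%. In affected samples the coefficient ranged from 7.28% for ORC1 to 114% for GINS1.

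Samples that share a bird number also differed from each other. From the first sample to the one with suffix B, the median log2 change over the 45 genes was -0.52 for bird number A16 (38 genes lower). It was -1.06 for bird number A76 (44 lower), whose samples also differed in HINTW and may not be of the same bird. The change was -1.12 for bird number NA61 (45 lower) and 0.65 for bird number NA64 (40 higher). The suffix is not explained in the sources used here. With samples of a bird number summed, 16 of the 45 genes were lower at an unadjusted p under 0.05 in edgeR, compared with 1502 of 14703 tested genes. Without the suffix B samples 6 were, compared with 1333 of 14525. The median log2 fold changes of the 45 genes in these fits were -0.54 and -0.46.

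Among fits with 1 sample left out, the number of genes that passed the test moved most without A73. Without it, 29 of the 45 genes were called lower by edgeR, compared with 6.3% of all tested genes, and the median log2 fold change was -0.84. These 29 included 7 helicase genes (MCM2, MCM4, MCM5, MCM6, GINS1, GINS2 and GINS3), PCNA and RFC2 to RFC5. Without A76, 6 genes were called (ORC5, MCM2, MCM4, GINS3, POLE and NASP), compared with 3.36% of all tested genes. Without NA61B, MCM2 and MCM4 were called, compared with 3.55% of all tested genes, and without NA66, GINS3 was, compared with 3.04%, so these counts were near the background. Leaving out any of the other 16 samples gave no call. DESeq2 on all 20 samples called MCM2, MCM4 and GINS3, compared with 4.08% of all genes it tested. The limma-voom fit with sample weights called 34 of the 45, compared with 7.84% of all tested genes. Its lowest weights were 0.203 for NA64B, 0.388 for NA70 and 0.475 for A73.

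**Figure D5:**
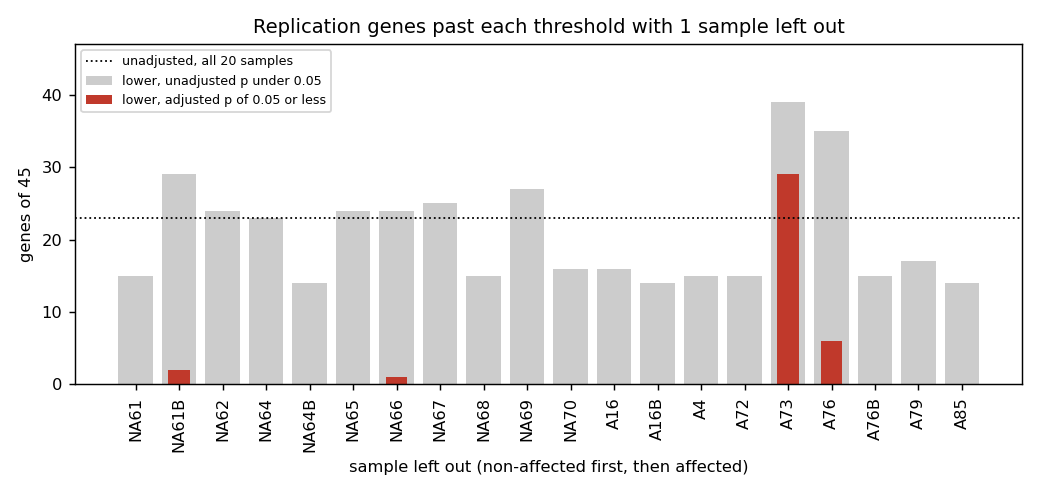
With each of the 20 samples left out in turn, grey bars count the genes of 45 that were lower at an unadjusted p under 0.05 and red bars those called lower by edgeR (adjusted p of at most 0.05), and the dotted line marks the 23 of the former with all samples. Red bars reach 29 without A73 and 6 without A76, and the grey bars run from 14 to 39.

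The size of the difference also moved with the W chromosome transcripts. With HINTW as an additive term in the edgeR fit, the median log2 fold change of the 45 genes was -0.36, 43 were lower, and none had an unadjusted p under 0.05, compared with 3.26% of all tested genes. In that fit 0 of the 14524 tested genes were called in either direction by edgeR, so the calls of myoblast and macrophage markers were lost as well. Among the 10 samples with 100 counts of HINTW or fewer, which are 8 affected samples and NA61 and NA61B, the median was -0.77 and 44 genes were lower, 1 at an unadjusted p under 0.05, compared with 4.37% of all tested genes. The ratios to the non-affected median in these 10 samples ran from 0.711 to 1.55 in the pair of non-affected and from 0.411 to 1.67 in the affected samples. Among samples with over 100 counts, A76, at 1.29, was the one affected sample and lay inside the non-affected range of 0.854 to 1.52. The sex of the birds and the disease class cannot be told apart in most of these samples. None of the 44 genes placed on a chromosome lay on the Z chromosome.

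Macrophage markers moved with the groups as well, with a median log2 fold change of 1.32 over those tested. In the other lists the median was 0.39 for adipocyte, 0.07 for endothelial, 0.01 for T cell, -0.08 for erythroid and -0.09 for fibroblast markers. Of 17 macrophage markers, 15 were listed and 10 tested, and all 10 had a positive log2 fold change in affected samples. Of the 10, 4 were called higher (CSF1R, PTPRC, CYBB and LAPTM5), compared with 3.21% of all tested genes. The 15 listed summed to 24.6 to 92.96 CPM in non-affected and 64.5 to 229.7 CPM in affected samples, highest in A79 and A76B. The macrophage complement gene C1QA did not pass the filter and was not tested. No non-affected sample exceeded 0.179 CPM of C1QA. Its highest level, 2.31 CPM, came from 40 counts in A79, and A16, A4, A73 and A76 had 0 counts. C1QB, a complement gene of the same list, was tested and hardly differed, with a log2 fold change of 0.02 (edgeR adjusted p = 0.962). In A73 the macrophage sum was 64.6 CPM and in A85, where replication genes were low, it was 64.5 CPM. The markers behind these sums differed. Most of the 15 listed markers had more counts in A85. CSF1R had 3 counts in A73 and 57 in A85, LAPTM5 had 25 and 191, LY86 had 40 and 181, and CYBB had 19 and 60. SPI1 was nearly level, with 29 and 28 counts. PTPRC, with 283 and 205 counts, and CTSS, with 442 and 208, went the other way. These were the markers of the list with the most counts in both samples, so they weighed most in the sums. Fibroblast markers summed to 7493 to 22121 CPM in non-affected and 5682 to 17937 CPM in affected samples. Of 10 tested, 1 was called lower, compared with 2.86% of all tested genes. Of 4 endothelial markers tested, 1 was called lower, namely TEK, at -4.04 (edgeR adjusted p = 0.042). TEK had 1792 counts in NA65 and at most 119 in any other sample, so this call rested on NA65. The 8 listed T cell markers summed to at most 6.7 CPM in any sample, with CD4 at 0 throughout, although LCK had 41 to 95 counts in every sample. The 5 listed erythroid markers summed to 16.5 to 37.9 CPM, with HBA1 at 0 throughout and SLC4A1 at 251 to 645 counts. The part of these cells in the levels of the replication genes was not tested. The myoblast markers summed to 157.3 CPM in A73 and 102.03 CPM in A76, within the affected range of 66.4 to 250.02 CPM. Their relation to the replication genes was not tested either.

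Genes that act around this core were examined next. A second set of 92 genes held origin firing and fork protection, further subunits, further nucleotide enzymes, histone supply and E2F factors, and 82 of them were tested. Of these, 68 were lower and 14 higher, with a median log2 fold change of -0.29. At an unadjusted p under 0.05, 18 were lower and 3 higher, the latter being SMARCAL1, which remodels stalled forks (0.79; edgeR adjusted p = 0.124), the repair polymerase POLB (0.34; edgeR adjusted p = 0.148) and E2F5 (0.31; edgeR adjusted p = 0.198), with log2 fold changes in parentheses. These shares stand against 11.6% and 12.4% of all tested genes. ATIC, SAMHD1 and TFDP2 were called lower and none was called higher, so 3 of 82 were called lower, near the 2.86% of all tested genes. All 3 calls were lost with HINTW as a term, but in that fit none of the 14524 tested genes was called.

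ATIC, which completes the purine ring, was at 68.6 to 109.5 CPM (median 81.8) in non-affected and at 43.9 to 73.4 CPM (median 52.0) in affected samples, and the groups overlapped between 68.6 and 73.4 CPM. Its log2 fold change was -0.58 ± 0.12 (SE; edgeR adjusted p = 0.00929). SAMHD1, which breaks down deoxyribonucleotides and so acts against their supply, was at 15.3 to 26.1 CPM (median 17.995) against 10.01 to 20.4 CPM (median 12.5), with a log2 fold change of -0.46 ± 0.13 (SE; edgeR adjusted p = 0.0434). TFDP2, a partner of E2F factors, was at 27.6 to 46.2 CPM (median 33.9) against 17.7 to 44.3 CPM (median 22.9), with a log2 fold change of -0.51 ± 0.15 (SE; edgeR adjusted p = 0.0464). TFDP1, the other partner, was at -0.58 (edgeR adjusted p = 0.138).

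By list, the median log2 fold change was -0.38 for 24 origin firing and fork protection genes, of which 22 were lower. It was -0.38 for the 10 E2F factors and their partners, of which 9 were lower. It was -0.27 for 14 further subunits, of which 10 were lower and 4 higher, the latter including ORC4 (0.25) and POLD4 (0.14). The median was -0.24 for 23 further nucleotide genes and -0.22 for 11 histone and chromatin genes. CHTF18, which loads PCNA for sister chromatid cohesion, was at -0.60 (edgeR adjusted p = 0.0963), and DONSON, needed to start the helicase, at -0.85 (edgeR adjusted p = 0.0988). LRWD1, which binds ORC, was at -0.35 (edgeR adjusted p = 0.089) and MCM9, an MCM protein of DNA repair, at -0.72 (edgeR adjusted p = 0.0901). NAP1L4, a histone chaperone, was at -0.21 (edgeR adjusted p = 0.073) and HAT1, which acetylates new histones, at -0.35 (edgeR adjusted p = 0.184).

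Genes were placed by symbol on GRCg7b with its RefSeq annotation. TYMS lies on chromosome 2 (chr2:101550806-101569908), MCM2 on chromosome 12 (chr12:9920513-9931857), MCM4 on chromosome 2 (chr2:107671147-107683231) and GINS3 on chromosome 11 (chr11:357018-368229). The genes were spread over 19 chromosomes. Of these genes, 13 overlap another annotated gene and 6 overlap a protein-coding one, namely TYMS (with YES1), GINS1, RFC1, POLA2, LIG1 and UHRF1. Whether counting used the strand is not given in the sources used here, so reads of such overlaps could be shared.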

How the data were processed

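Poly-A RNA of 20 MuSC samples (11 non-affected, 9 affected) was sequenced. Per the paper's methods and the submitters' processing notes, the authors trimmed reads (Trim Galore 0.6.7, cutadapt 3.4), aligned them to GRCg7b (STAR 2.7.9a) and quantified genes with Salmon 1.10.1 and tximport. The authors deposited estimated counts per gene, neither normalized nor filtered, and 71.2% of the values were whole. The annotation release is not given in the sources used here. The study left out a pair of non-affected samples without naming them, so all 20 were kept, and its methods count more affected MuSC samples than the labels hold (9).

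Estimated counts were rounded, filtered with filterByExpr (14524 of 30108 genes), normalized by TMM and compared with the quasi-likelihood F test of edgeR 4.0.16 in R 4.3.3 (robust, no covariate), with Benjamini-Hochberg adjustment over all tested genes and a threshold of 0.05. Standard errors were approximated from the F statistic. The script was tested on simulated counts. The labels do not say whether samples of a bird number came from the same bird, and A76 and A76B differed in HINTW (876 and 0 counts). The p-values therefore measure the spread between these samples.

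The members and lists were chosen with earlier results of these data known. Named with full values were, in each list, the 2 genes with the smallest p and the 1 with the largest. Other members were given by log2 fold changes or counts, and the levels of MCM2 and PCNA were added after their values were seen. Alternatives were DESeq2 1.42.0, limma-voom (limma 3.58.1) with sample weights, RLE normalization, no filter and a stricter filter (50 counts in 9 samples), samples of a bird number summed, no suffix B samples, HINTW as log2 of CPM plus 1, samples with 100 HINTW counts or fewer, and each sample left out. Leaving out A76 and A76B was chosen after seeing the data. Promoter and protein sequences were not used here, nor were the proteomics, RT-qPCR and RNA-seq of muscle tissue. Plots were made in Python 3.11.15 (matplotlib 3.10.9).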

Additional observations from a re-analysis of the deposited data

Results flagged for a closer look

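In 2 of the 45 replication genes, the affected sample A73 stood apart from the other 8 affected samples by a gap that was wide for the range of the group (Dixon's test at the 95% level). PRIM1, the catalytic subunit of primase, was at 29.9 CPM in A73, and RPA2, a subunit of the single-strand binding protein, was at 94.9 CPM. By chance about 1 in 20 separate groups gives such a gap. The 45 genes were measured in the same affected samples and are not separate groups, so the count cannot be compared directly with this share.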

How the results depend on the processing

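The median log2 fold change of the 45 genes was negative in all 30 alternatives and ranged from -0.84 to -0.50 with each sample left out. No gene was called higher in any of them. With edgeR on all samples, 0 genes were called lower (adjusted p of at most 0.05) and 23 had an unadjusted p under 0.05. The number called lower was 3 with DESeq2 and 34 with limma-voom and sample weights, compared with 4.08% and 7.84% of all tested genes. It was 1 with the stricter filter (GINS3), compared with 331 of 11377 tested genes. Without A76 and A76B it was 2 (ORC5 and MCM4), compared with 321 of 14791, and with each sample left out from 0 to 29. It was 0 with RLE normalization, no filter, samples of a bird number summed, no suffix B samples and both HINTW settings. The number lower at an unadjusted p under 0.05, 23 with all samples, was 37 with limma-voom, 6 without the suffix B samples, 0 with HINTW as a term, 1 in samples with 100 HINTW counts or fewer, and from 14 to 39 with each sample left out. It moved by over 1.5 times without NA61 (15), NA64B (14), NA68 (15), A16B (14), A4 (15), A72 (15), A73 (39), A76 (35), A76B (15) and A85 (14). Over all tested genes this number moved too, from 1683 of 14524 with all samples to 2306 of 14524 with limma-voom. With each sample left out it ran from 1381 of 14609 (without A16B) to 2349 of 14692 (without A73). ORC1 changed sign, to 0.051 with HINTW as a term, 0.028 in samples with 100 HINTW counts or fewer, and between -0.051 and 0.021 with each sample left out. POLD3 changed sign to 0.022 with HINTW as a term. The cause was not tested. No paired analysis was possible because the groups share no replicate number. Genes such as TYMS (26 counts), GINS2 (18 counts) and SLBP (15 counts) in A72, and GINS1, with as few as 13 counts, are limited by depth.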
